A study of Strongylocentrotus intermedius with 6 samples.

Results

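Of the 30559 gene models in the count table of sea urchin (Strongylocentrotus intermedius) coelomocytes, 77 form the antioxidant and reactive oxygen genes described here. They are the coding models, out of 22969, whose description names a superoxide dismutase, catalase, peroxiredoxin, thioredoxin, glutaredoxin, glutathione peroxidase or reductase, peroxidasin, NADPH or dual oxidase, nitric oxide synthase, sulfoxide reductase, ovoperoxidase or sulfiredoxin. The rule used no measured value. The libraries came from coelomocytes, the cells of the coelomic fluid that carry the immune functions of the sea urchin, under the light regime labelled LD, by convention light alternating with dark, which both groups share. There were 3 libraries at ZT12 and 3 at ZT0, where ZT is zeitgeber time in hours and ZT0 is the usual name of lights-on. The sex, age and number of animals behind a library are not given in the labels, so a p-value measures the spread between these libraries, and part of that spread may be technical.

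Reactive oxygen is made on purpose by immune cells and by accident in mitochondria. NADPH oxidases and dual oxidases pass electrons from NADPH to oxygen and so make superoxide or hydrogen peroxide. Superoxide dismutases turn superoxide into hydrogen peroxide, and catalase, glutathione peroxidases and peroxiredoxins remove the peroxide. Thioredoxin, glutaredoxin and their reductases hand the electrons of NADPH back to the oxidised enzymes. Peroxidasins are secreted heme peroxidases that use peroxide to crosslink collagen IV in animals studied so far. In the related urchin Strongylocentrotus purpuratus, a dual oxidase of the egg supplies peroxide to ovoperoxidase, which hardens the fertilization envelope. Among the 77 descriptions 0 named ovoperoxidase.

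Library totals lay between 20229918 and 24368884 counts. The names searched for as coelomocyte markers were found only in part. The 3 models described as profilin summed to 4766 to 7338 CPM per library (counts scaled to a common library size). Of this, a single gene (ZJQ019423) gave 4763 to 7336 CPM. The 3 described as complement C3 summed to 763 to 1853 CPM, and 37 described as scavenger receptor cysteine-rich to 1837 to 2173 CPM. The 12 described as macrophage mannose receptor summed to only 11.9 to 47.1 CPM. There were 0 models described as amassin, the clotting protein of these cells, and 0 as transglutaminase. A further name searched for also matched 0 models. Markers of skeleton-forming cells summed to 90.4, 182 and 96.5 CPM in ZT12 libraries 1, 2 and 3, against 361, 728 and 393 CPM in ZT0 libraries 1, 2 and 3. Of their 10 tested genes edgeR called 5, all lower at ZT12. Gut markers summed to 3750 to 4085 CPM at ZT12 and 3709 to 4905 CPM at ZT0, and 0 of 33 tested genes were called. Of these 33, 27 had log2 fold changes above 0, 13 were higher at ZT12 at an unadjusted p under 0.05 (3.44% of all tested genes were), and the median was 1.56. Markers of egg and ovary summed to 197 CPM in ZT12 library 2 and to between 39.8 and 65.3 CPM in the other libraries. Most of the 197 CPM came from a single gene, cyclin B (ZJQ013334), with 150 CPM there and 7.72 to 17.8 CPM in the other libraries. In whole-sample RNA, fewer cells of a type and less RNA per cell cannot be told apart, and the part of cell composition in the values below was not tested.

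Most of the counts of the antioxidant genes came from a dual oxidase and its maturation factor. Together the 77 models made up 1.35, 1.04 and 0.995% of all counts in ZT12 libraries 1, 2 and 3, against 0.834, 0.919 and 1.05% in ZT0 libraries 1, 2 and 3. The times overlapped, with means of 1.13 ± 0.191% at ZT12 and 0.934 ± 0.108% at ZT0 (SD, n = 3 each, as for all means below). DUOX2 (ZJQ013739) and DUOXA1 (ZJQ013741) held 64.8, 61 and 65% of these counts in the ZT12 libraries, and 57.9, 62.2 and 64% in the ZT0 libraries. Without this pair the other models held 0.409 ± 0.0629% of all counts at ZT12 and 0.359 ± 0.0166% at ZT0. Counts also grow with gene length, and the DUOX2 model has 7630 bases. Levels of different genes are therefore compared below in FPKM, the authors' counts scaled for gene length and library total. In FPKM the pair held a smaller share. In ZT12 library 1 DUOXA1 had 895 and DUOX2 768 of a summed 3815 FPKM, and in ZT0 library 1 they had 677 and 349 of 2559 FPKM. By mean FPKM over all 6 libraries DUOXA1 ranked 96 and DUOX2 ranked 126 among the 22969 coding models. Next came a thioredoxin gene TXN (ZJQ005543, rank 194), catalase CAT (ZJQ010694, rank 221), a methionine sulfoxide reductase MsrA (ZJQ016293, rank 364), a copper-zinc superoxide dismutase (ZJQ017342, rank 444) and glutaredoxin-1 GLRX (ZJQ013576, rank 463). The mean FPKM of neighbours in this order differed by less than the larger SD of the pair for DUOXA1 and DUOX2 at ZT12, for MsrA and ZJQ017342 at ZT12, and at both times for TXN and CAT and for ZJQ017342 and GLRX.

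**Figure D1:**
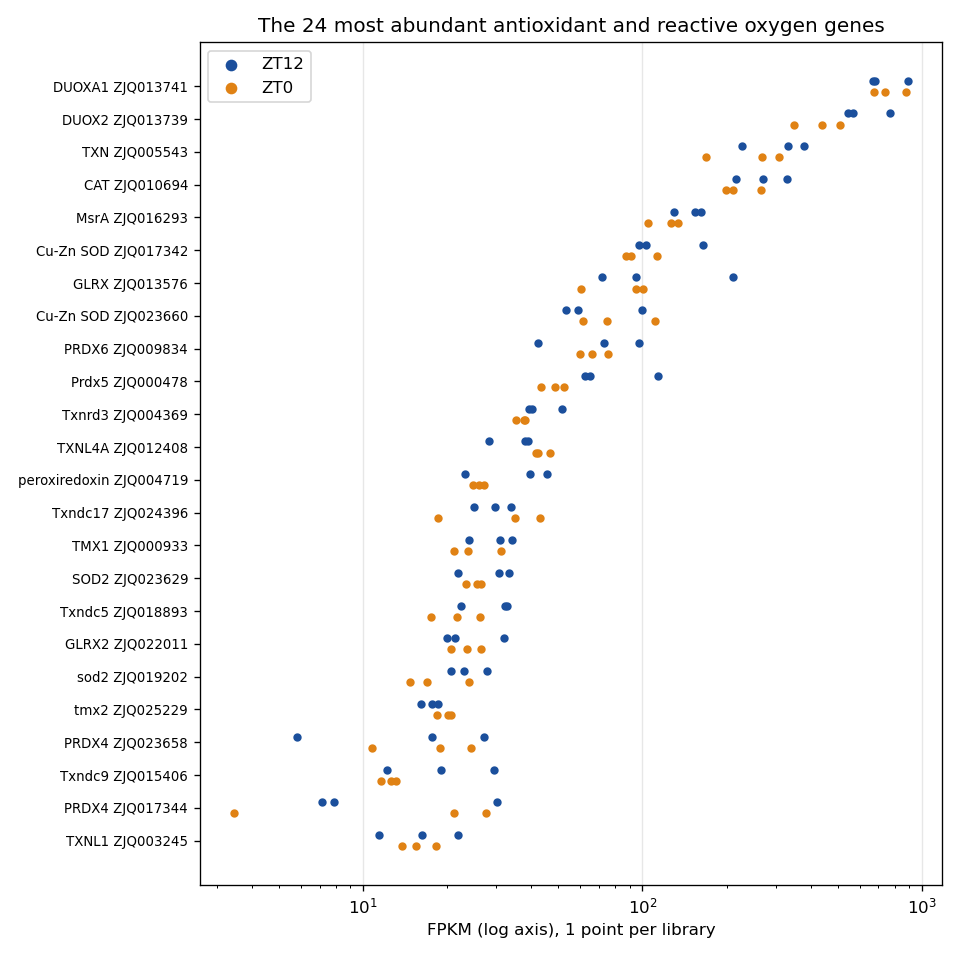
FPKM on a log axis of the 24 antioxidant and reactive oxygen genes with the highest mean FPKM, 1 point per library, with ZT12 above ZT0 for each gene. DUOXA1 and DUOX2 lie above all other genes shown in every library, and the 2 PRDX4 genes have the widest spread between libraries of a time.

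Between the times, no antioxidant gene passed the test. Of 67 genes with enough counts to be tested, 0 were called by the quasi-likelihood test of edgeR, after Benjamini-Hochberg adjustment over 18456 genes at a false discovery rate of 0.05. Of all tested genes 0.13% were called, 0.0163% higher and 0.114% lower at ZT12. At an unadjusted p under 0.05 there were 3 of the 67 (4.48%), 2 higher and 1 lower at ZT12, against 7.31% of all tested genes (3.44% higher and 3.87% lower). In CPM, the libraries of the times did not overlap for 11 of the 67 (16.4%), against 12.2% of all tested genes. These were 3 all above and 8 all below at ZT12, against 5.84% and 6.33% of all tested genes. In FPKM, on plain library totals, the 3 all above stayed apart. Of the 8 all below, only TXNL4A (ZJQ012408) and Pxdn (ZJQ018623) did. Some genes, such as DUOX2, were apart in FPKM only, and the share of all tested genes apart in FPKM was not computed. The median log2 fold change (ZT12 minus ZT0) was -0.03 over the 67 genes and 0.00 over all tested genes, 30 lay above and 37 below 0, and 61 differed by less than 2-fold. Limma-voom, limma-trend on FPKM and the older edgeR setting (legacy = TRUE) also called 0. Of all tested genes limma-voom called 0 and legacy = TRUE called 10, so their 0 here says little about the antioxidant genes. At an unadjusted p under 0.05 limma-voom found 4, where it found 5.84% of all tested genes. DESeq2 called 2, both peroxidasins, where it called 1.27% of 20442 genes. The other 10 models had too few counts to be tested.

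**Figure D2:**
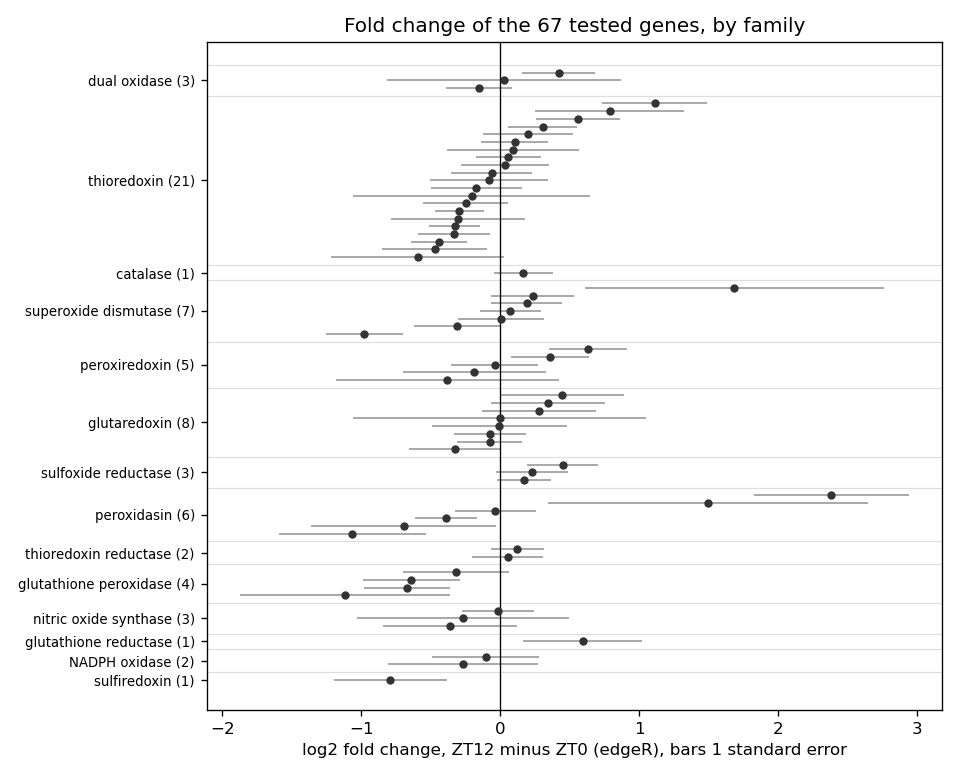
Log2 fold change of the 67 tested genes (ZT12 minus ZT0, edgeR) with bars of 1 standard error, 1 point per gene, grouped by family with the number tested in brackets and families ordered from the highest summed FPKM at the top. Most points lie within 1 log2 unit of 0; all 4 glutathione peroxidases lie below 0 and all 3 sulfoxide reductases above it, and 0 of the 67 passed the test.

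DUOX2, the dual oxidase, which makes hydrogen peroxide, had more message relative to its maturation factor in each ZT12 library than in any ZT0 library. DUOXA1 is the membrane protein that dual oxidase needs to leave the endoplasmic reticulum, and the models DUOX2, DUOX1 (ZJQ013740) and DUOXA1 have consecutive identifiers. DUOX2 had 5845, 4006 and 4011 CPM in ZT12 libraries 1, 2 and 3, against 2906, 3222 and 4232 CPM in ZT0 libraries 1, 2 and 3. ZT12 library 1 was the highest and ZT0 library 1 the lowest, and the times overlapped at ZT0 library 3. The log2 fold change was 0.42 (SE 0.26, edgeR adjusted p = 0.782). It stayed above 0 in all 14 alternative analyses. In FPKM, which scales by plain library totals, the times did not overlap, with 768, 546 and 566 FPKM at ZT12 and 349, 440 and 509 FPKM at ZT0.

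DUOXA1 had 2856, 2091 and 1994 CPM in the ZT12 libraries, against 2365, 2270 and 3073 CPM in the ZT0 libraries (edgeR log2 fold change -0.15 with SE 0.24, adjusted p = 0.924). The libraries of the times were intermixed. The ratio of DUOX2 to DUOXA1 FPKM within a library does not depend on how libraries are scaled. It was 0.859, 0.804 and 0.844 in ZT12 libraries 1, 2 and 3, against 0.515, 0.595 and 0.578 in ZT0 libraries 1, 2 and 3. The means were 0.835 ± 0.0284 at ZT12 and 0.563 ± 0.042 at ZT0 (SD, n = 3 each), a gap several times the spread between libraries. A two-sided exact permutation test gave p = 0.1, the smallest that 3 against 3 libraries allow. The ratio was chosen after its values were seen, so this p-value cannot tell whether the times differ.

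DUOX1, the second dual oxidase, was a minor transcript with a mean of 6.02 FPKM at ZT12 and 5.55 FPKM at ZT0. It had 8.84, 50.6 and 27 CPM in the ZT12 libraries, against 29, 51.3 and 3.83 CPM in the ZT0 libraries. Its level therefore differed 5.73-fold between libraries of ZT12 and 13.4-fold between libraries of ZT0, with means that were nearly equal (edgeR log2 fold change 0.03 with SE 0.84, adjusted p = 0.996). TXNDC11 (ZJQ021220), an endoplasmic reticulum protein with thioredoxin domains whose human counterpart binds dual oxidase, averaged 7.66 ± 2.9 CPM at ZT12 and 7.2 ± 3.41 at ZT0.

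**Figure D3:**
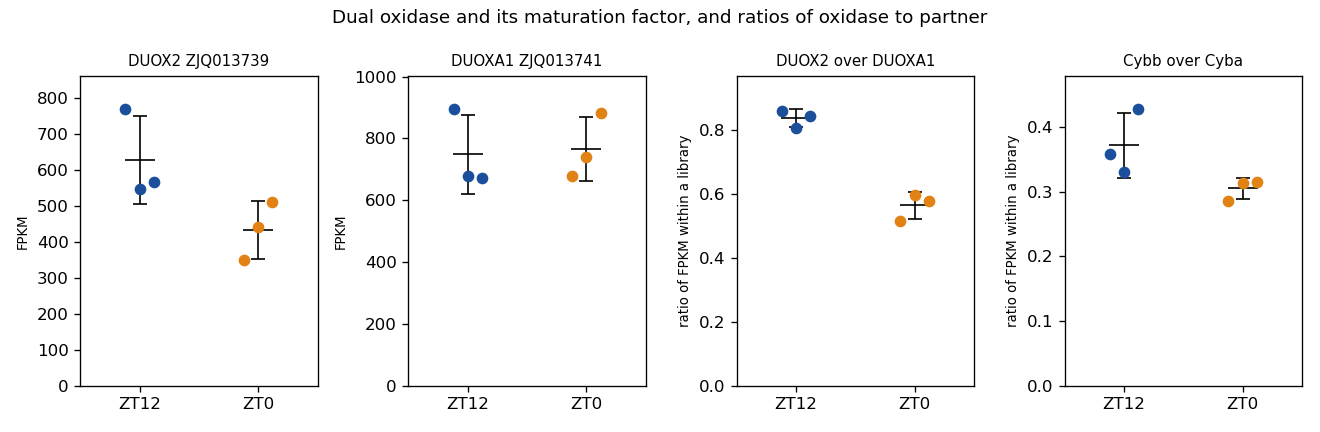
FPKM of DUOX2 and of DUOXA1, and 2 ratios of FPKM within a library (DUOX2 over DUOXA1, and Cybb over Cyba), at ZT12 and ZT0; points are libraries, and bars are the mean and SD of 3 libraries. The DUOX2 to DUOXA1 ratios lie between 0.804 and 0.859 at ZT12, all above the ZT0 values of 0.515 to 0.595, while DUOXA1 itself is intermixed.

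The NADPH oxidases named by the rule were scarce. NOX1 (ZJQ022887) had 8.92, 3.9 and 8.68 CPM at ZT12, against 8.18, 7.43 and 7.6 CPM at ZT0 (edgeR log2 fold change -0.10, adjusted p = 0.971), and the ZT0 values lay inside the range of the ZT12 values. A gene annotated noxC after a superoxide-generating oxidase of the slime mould Dictyostelium (ZJQ003754) averaged 2.29 ± 1.03 CPM at ZT12 and 2.76 ± 1.2 at ZT0. The other 5 models, 2 noxA, 1 noxB, 1 noxC and Nox4 (ZJQ023353), were not tested, and the highest value among them was 1.57 CPM, for noxC (ZJQ009806) in ZT12 library 2. One noxA model (ZJQ005076) had 0 counts in all libraries, and 3 counts in a library, the limit that a count of 0 allows, would be 0.123 to 0.148 CPM on plain totals. This limit covers counting error only.

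The classical phagocyte oxidase was far more abundant than these and is described by names that the rule does not match. Cybb (ZJQ023553), the catalytic heavy chain of cytochrome b-245, averaged 258 ± 68.7 CPM at ZT12 and 224 ± 48.3 at ZT0, and Cyba (ZJQ017036), the light chain that stabilises it, had 487 ± 140 and 509 ± 97 CPM. By mean FPKM over all libraries Cybb stood at 51 and Cyba at 151, compared with 3.76 for NOX1. The within-library ratio of Cybb to Cyba FPKM was 0.358, 0.331 and 0.428 at ZT12, against 0.287, 0.313 and 0.316 at ZT0. These did not overlap either, by a narrow margin (two-sided exact permutation p = 0.1, the smallest possible). This ratio too was chosen after its values were seen, so its p-value cannot tell whether the times differ. The main RAC1 gene (ZJQ021479), a small GTPase of the complex, averaged 1285 ± 191 CPM at ZT12 and 1240 ± 200 at ZT0. The oxidase partners with the smallest p were further RAC1 models, ZJQ000207 averaging 1.53 ± 0.996 CPM at ZT12 and 0.504 ± 0.251 at ZT0, and ZJQ021482, averaging 10.5 ± 1.3 and 13.2 ± 0.634 CPM. Of the 8 tested oxidase partners edgeR called 0, and 0 had an unadjusted p under 0.05, against 0.13% and 7.31% of all tested genes. Their median log2 fold change was 0.11.

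The most abundant superoxide dismutases were intracellular forms, and the minor Sod3 was the most uneven between libraries of a time. The smallest p of the family was that of sodA (ZJQ006942), a copper-zinc form of low level. It had 21.7, 32.5 and 22.4 CPM in ZT12 libraries 1, 2 and 3, against 60.1, 54.3 and 36.2 CPM in ZT0 libraries 1, 2 and 3. In CPM all ZT12 libraries lay below all ZT0 libraries, and the mean was 25.5 ± 6.04 CPM at ZT12 and 50.2 ± 12.5 CPM at ZT0. In FPKM the times overlapped, with 4.66 FPKM in ZT12 library 2 and 4.58 FPKM in ZT0 library 3. The log2 fold change was -0.98 (SE 0.27, unadjusted p = 0.0078, edgeR adjusted p = 0.438), and it was between -1.19 and -0.83 when single libraries were left out.

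The copper-zinc dismutases ZJQ017342 and ZJQ023660 had the highest levels of the family, with 122 ± 37 and 70.7 ± 25.5 FPKM at ZT12, against 97.1 ± 13.7 and 82.4 ± 25.9 FPKM at ZT0. The mitochondrial manganese forms SOD2 (ZJQ023629) and sod2 (ZJQ019202) followed, with 28.6 ± 5.97 and 23.8 ± 3.64 FPKM at ZT12 and 25.1 ± 1.6 and 18.5 ± 4.74 FPKM at ZT0. Their log2 fold changes were all between -0.31 and 0.23, with edgeR adjusted p from 0.879 to 0.963. CCS (ZJQ001342), the chaperone that loads copper into the enzyme, averaged 13.2 ± 4.12 CPM at ZT12 and 13.1 ± 1.02 at ZT0.

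Sod3 (ZJQ003972), annotated as the secreted form, was ruled by a single library. It had 1.84, 66.9 and 10.6 CPM in ZT12 libraries 1, 2 and 3, against 14.6, 4.27 and 5.82 CPM in ZT0 libraries 1, 2 and 3. ZT12 library 2 was 36.3-fold above ZT12 library 1, and the times overlapped. The log2 fold change of 1.69 (SE 1.08, edgeR adjusted p = 0.79) became -0.41 without ZT12 library 2. That library also had the highest sum of egg and ovary markers, 197 CPM, of which the cyclin B gene ZJQ013334 gave 150 CPM. The part of egg or ovary cells in the Sod3 value was not tested.

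Catalase, which splits hydrogen peroxide, came from a single gene with steady levels. CAT had 502, 316 and 382 CPM in ZT12 libraries 1, 2 and 3, against 330, 387 and 351 CPM in ZT0 libraries 1, 2 and 3. ZT12 library 1 was the highest and ZT12 library 2 the lowest, so the ZT0 libraries lay inside the ZT12 range (edgeR log2 fold change 0.17 with SE 0.21, adjusted p = 0.911).

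All 4 glutathione peroxidases, which reduce peroxides with glutathione, had lower fitted levels at ZT12, and none passed the test. GPX1 (ZJQ004854) had 40.1, 47.3 and 45.9 CPM in ZT12 libraries 1, 2 and 3, against 93.9, 78.6 and 39.9 CPM in ZT0 libraries 1, 2 and 3. ZT0 libraries 1 and 2 were well above the rest and ZT0 library 3 was the lowest of all (edgeR log2 fold change -0.67 with SE 0.31, adjusted p = 0.703). Gpx1 (ZJQ014883) had 26.7, 17.9 and 15.9 CPM at ZT12, against 18.8, 34.1 and 41.4 CPM at ZT0 (-0.64, SE 0.35, adjusted p = 0.739). A further Gpx1 model (ZJQ018568) and Gpx7 (ZJQ005431), an endoplasmic reticulum form, had log2 fold changes of -1.12 and -0.32. These became -0.27 and -0.051 without ZT0 library 3, and -1.68 and -0.54 without ZT12 library 2. In all 4 genes the times overlapped, and the sign was kept in all 14 alternative analyses. The family median was -0.66, against 0.00 over all tested genes.

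Glutathione reductase, which regenerates glutathione with NADPH, stood on the other side. The gene gsr-1 (ZJQ014043) had 26.4, 23.2 and 8.86 CPM in ZT12 libraries 1, 2 and 3, against 16.7, 9.78 and 12.4 CPM in ZT0 libraries 1, 2 and 3. ZT12 library 3 was the lowest of the 6 and the other ZT12 libraries were the highest (edgeR log2 fold change 0.59 with SE 0.43, adjusted p = 0.813).

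Among the peroxiredoxins, thiol peroxidases that take peroxide at low levels, the mitochondrial Prdx5 (ZJQ000478) separated the times. It had 137, 72.3 and 72.8 CPM in ZT12 libraries 1, 2 and 3, against 64.1, 60.8 and 57.2 CPM in ZT0 libraries 1, 2 and 3. All ZT12 libraries lay above, but most of the difference came from ZT12 library 1. The log2 fold change was 0.63 (SE 0.28, edgeR adjusted p = 0.696), and it was 0.27 at its lowest when single libraries were left out. By FPKM over all 6 libraries PRDX6 (ZJQ009834, 69 FPKM) and Prdx5 (64.2 FPKM) were the most abundant peroxiredoxins, and Prdx5 was the higher of the pair at ZT12. PRDX6 averaged 229 ± 91.5 CPM at ZT12 and 235 ± 41.2 at ZT0, and an unnamed peroxiredoxin (ZJQ004719) had 98.4 ± 34.3 and 76.7 ± 8.52 CPM. Prdx3 (ZJQ007504), described as a thioredoxin-dependent peroxide reductase and added here after its values were seen, averaged 7.4 ± 1.42 CPM at ZT12 and 7.24 ± 0.88 at ZT0. PRXL2A (ZJQ015046) had 1 count in all.

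The PRDX4 genes, for a peroxiredoxin of the endoplasmic reticulum, traded order between libraries. ZJQ017344 had 24.3, 89.5 and 20.5 CPM in ZT12 libraries 1, 2 and 3, against 93.2, 10.2 and 71.6 CPM in ZT0 libraries 1, 2 and 3. ZJQ023658 had 85.7, 17.8 and 52.3 CPM in the ZT12 libraries, against 37.4, 74.5 and 65.5 CPM in the ZT0 libraries. ZJQ017344 was the higher of the pair in ZT12 library 2 and ZT0 libraries 1 and 3, and ZJQ023658 was the higher in the other 3 libraries. Their sum was steadier than either gene, at 110, 107 and 72.7 CPM at ZT12 and 131, 84.7 and 137 CPM at ZT0. Each lies 2 identifiers from one of the copper-zinc dismutases, ZJQ017344 from ZJQ017342 and ZJQ023658 from ZJQ023660. Near-identical copies can share reads in the authors' counting, which was not checked here, so the values of single PRDX4, TXNDC12, dismutase and peroxidasin models are uncertain.

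Sulfiredoxin, which repairs over-oxidised peroxiredoxins, had lower CPM in each ZT12 library than in any ZT0 library. Srxn1 (ZJQ009740) had 11.9, 4.89 and 11.6 CPM in ZT12 libraries 1, 2 and 3, against 13.5, 13.3 and 22.5 CPM in ZT0 libraries 1, 2 and 3. The times did not overlap in CPM, yet 2 ZT12 libraries were close to 2 ZT0 libraries (edgeR log2 fold change -0.79 with SE 0.41, adjusted p = 0.727). In FPKM the times overlapped, with 4.36 FPKM in ZT12 library 3 and 4.35 FPKM in ZT0 library 1.

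The thioredoxin system was carried by TXN and Txnrd3. TXN (ZJQ005543), the cytosolic disulfide reductant, had 759, 639 and 423 CPM in ZT12 libraries 1, 2 and 3, against 586, 326 and 675 CPM in ZT0 libraries 1, 2 and 3, with the times intermixed (edgeR log2 fold change 0.20, adjusted p = 0.925). Its neighbour by identifier, a further TXN model (ZJQ005542), averaged 1.34 ± 0.377 CPM at ZT12 and 1.48 ± 1.87 at ZT0, with 3.63 CPM in ZT0 library 2 and 1.6 CPM or less elsewhere. Txnrd3 (ZJQ004369), a thioredoxin reductase, averaged 237 ± 44.9 CPM at ZT12 and 218 ± 14.6 at ZT0, and the mitochondrial Txnrd2 (ZJQ024355) had 17.5 ± 1.69 and 16.9 ± 3.72 CPM. Both had near-equal levels at the times, with log2 fold changes of 0.12 and 0.05 and edgeR adjusted p of 0.924 and 0.977.

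Of the 21 genes in the thioredoxin group, several carry the fold but work elsewhere in the cell. NME8 (ZJQ019368, also called TXNDC3) belongs to the dynein arms of cilia and was purified from sea urchin sperm. It had 21.2, 18.8 and 37.6 CPM in ZT12 libraries 1, 2 and 3, against 11.6, 16.3 and 7.85 CPM in ZT0 libraries 1, 2 and 3. All ZT12 libraries lay above all ZT0 libraries (edgeR log2 fold change 1.11 with SE 0.38, unadjusted p = 0.0196, adjusted p = 0.565). Sperm and testis markers summed to 413, 706 and 694 CPM in the ZT12 libraries, against 494, 728 and 372 CPM in the ZT0 libraries, which overlapped, and their part in the NME8 value was not tested.

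In 4 other genes of this group all ZT12 libraries lay below all ZT0 libraries in CPM. In FPKM this held only for TXNL4A. TXNL4A (ZJQ012408), a small protein of the spliceosome, had 100, 71.5 and 95.4 CPM at ZT12, against 122, 105 and 135 CPM at ZT0 (edgeR log2 fold change -0.44 with SE 0.20, adjusted p = 0.703). The membrane protein gene tmx2 (ZJQ025229) averaged 57.2 ± 5.95 CPM at ZT12 and 70.1 ± 4.25 at ZT0, a thioredoxin domain gene annotated TP02_0602 (ZJQ003716) had 35.1 ± 0.691 and 44 ± 4.02 CPM, and TXNDC15 (ZJQ015488) had 19.2 ± 4.92 and 24.2 ± 0.262 CPM. The log2 fold changes of these 3 were between -0.33 and -0.29, and none passed the test. Among the more abundant genes, Txndc17 (ZJQ024396), a small cytosolic disulfide reductase, averaged 67.7 ± 9.29 CPM at ZT12 and 80.4 ± 31.9 at ZT0. Txndc9 (ZJQ015406), a cofactor of a protein-folding complex, had 41.1, 61.8 and 92.6 CPM at ZT12, against 46.3, 37.8 and 48.3 CPM at ZT0, with 1 ZT12 library inside the ZT0 range. The 3 TXNDC12 models, for an endoplasmic reticulum protein, had log2 fold changes of 0.79, -0.47 and -0.08, and the first (ZJQ005041) had 38 CPM in ZT12 library 1 and 8.24 to 17.2 CPM elsewhere. The remaining 7 genes of the group (Txnl4b, Txndc5, Txn2, TMX1, TXNDC16, TXNL1 and a further TXNDC9) overlapped between the times, with log2 fold changes between -0.59 and 0.31.

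Glutaredoxins, which use glutathione to reduce disulfides or carry iron-sulfur clusters, were led by GLRX. It had 478, 207 and 150 CPM in ZT12 libraries 1, 2 and 3, against 234, 131 and 248 CPM in ZT0 libraries 1, 2 and 3. ZT12 library 1 stood well above the other 5, and the log2 fold change of 0.45 (SE 0.44, edgeR adjusted p = 0.879) became -0.18 without it. The mitochondrial GLRX2 (ZJQ022011) averaged 89.2 ± 27.1 CPM at ZT12 and 93.9 ± 17.3 at ZT0, and glrx3 (ZJQ007142), an iron-sulfur carrier, had 41.3 ± 10.2 and 43.6 ± 3.98 CPM. Of the low genes, Glrx5 (ZJQ000275), 2 grxA models and a glutaredoxin-like gene (ZJQ013589) had log2 fold changes between -0.33 and 0.34. GRXCR1 (ZJQ017742), whose mouse counterpart shapes the hair bundles of the inner ear, had 0.409, 4.23 and 0.594 CPM in ZT12 libraries 1, 2 and 3, against 0.303, 4.06 and 0.497 CPM in ZT0 libraries 1, 2 and 3. It was thus high in library 2 of either time and low in the other 4.

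**Figure D4:**
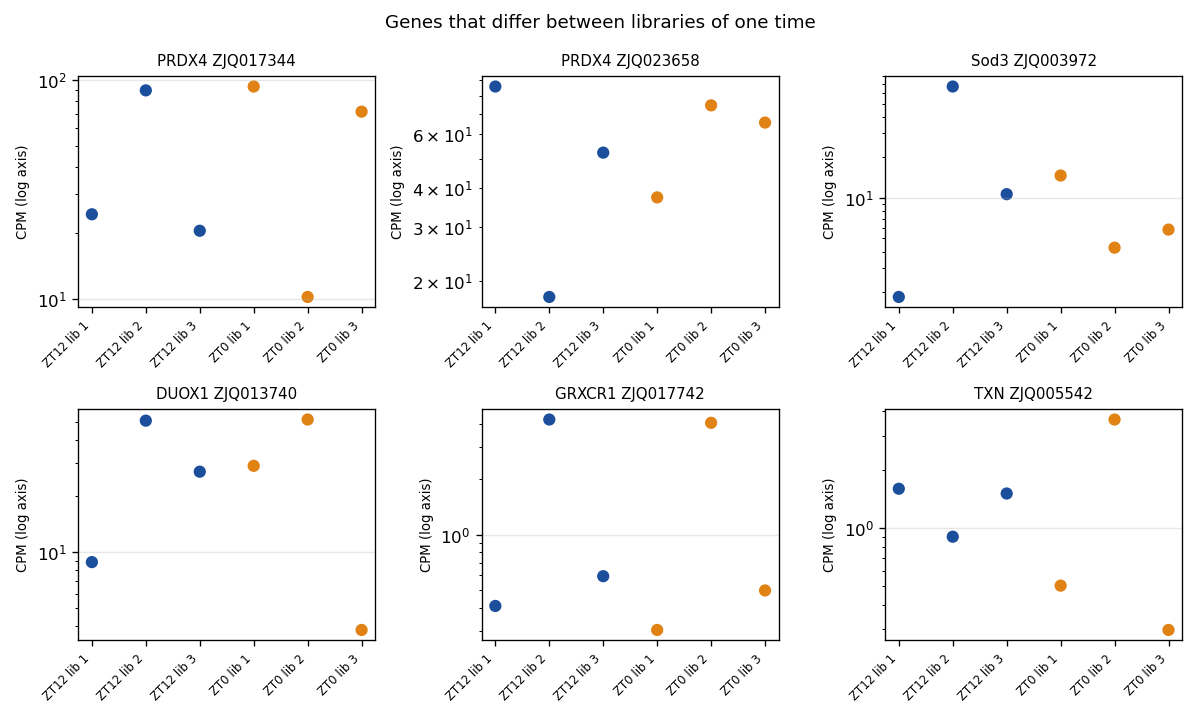
CPM on log axes, 1 point per library, of the 2 PRDX4 genes, Sod3, DUOX1, GRXCR1 and the low TXN model (ZJQ005542), with ZT12 libraries left of ZT0 libraries. The panels show genes that differ more between libraries of a time than between the times: the PRDX4 genes trade order, Sod3 stands at 66.9 CPM in ZT12 library 2, and GRXCR1 is high in library 2 of both times.

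The methionine sulfoxide reductases, which repair oxidised methionine, all had slightly higher fitted levels at ZT12. MsrA (ZJQ016293) had 97.8, 98.8 and 76.9 CPM in ZT12 libraries 1, 2 and 3, against 72.9, 77.4 and 92.8 CPM in ZT0 libraries 1, 2 and 3. The log2 fold changes were 0.17 for this gene, 0.23 for a further MsrA (ZJQ015516) and 0.45 for MSRB3 (ZJQ003427), with edgeR adjusted p from 0.748 to 0.901. The times overlapped in all 3, and the signs were kept in all 14 alternative analyses.

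Nitric oxide synthase was near the limit of detection. NOS1 (ZJQ025273), the enzyme itself, had 1.96, 0.333 and 2.47 CPM in ZT12 libraries 1, 2 and 3, against 0.808, 1.45 and 3.58 CPM in ZT0 libraries 1, 2 and 3 (edgeR log2 fold change -0.27 with SE 0.76, adjusted p = 0.963). With 7 to 72 counts per library, differences smaller than this spread were not detectable at this depth. A shorter Nos1 model (ZJQ024749) had at most 8 counts and was not tested. The other members with this name are partners and not enzymes: nosip (ZJQ012154), a ubiquitin ligase first found by its binding to the synthase, averaged 20.2 ± 5.09 CPM at ZT12 and 20.5 ± 2.45 at ZT0, and the adaptor Nos1ap (ZJQ009333) had 1.82 ± 0.749 and 2.35 ± 0.414 CPM.

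Peroxidasin gave the largest log2 fold change of the 67 tested genes. Pxdn (ZJQ002125) had 50.4, 68.7 and 98.7 CPM in ZT12 libraries 1, 2 and 3, against 27.5, 7.52 and 6.91 CPM in ZT0 libraries 1, 2 and 3. All ZT12 libraries lay above all ZT0 libraries, by 5.22-fold in the edgeR fit (log2 fold change 2.38, SE 0.56, unadjusted p = 0.00287), and the gene did not pass the test (adjusted p = 0.298). DESeq2 called it (adjusted p = 0.00441). When single libraries were left out the edgeR log2 fold change lay between 2.06 and 3.33 and the adjusted p between 0.0631 and 0.589. A further Pxdn model (ZJQ004218) with 0.205, 2.95 and 1.42 CPM at ZT12 and 0.0505, 0.0854 and 0 CPM at ZT0 had too few counts for the edgeR filter and was also called by DESeq2 (log2 fold change 5.04, adjusted p = 0.0464). It was chosen after its values were seen, and its ZT0 level rests on 1, 2 and 0 counts.

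In a pair of other peroxidasins the ZT12 libraries lay below the ZT0 libraries in CPM. Pxdn (ZJQ018623) had 50.6, 34.5 and 8.55 CPM in ZT12 libraries 1, 2 and 3, against 73.4, 63.8 and 58.9 CPM in ZT0 libraries 1, 2 and 3. All ZT12 libraries lay below all ZT0 libraries, and ZT12 library 3, which was the highest library for ZJQ002125, was the lowest here (edgeR log2 fold change -1.06 with SE 0.53, adjusted p = 0.719). PXDN (ZJQ009748) averaged 25.6 ± 2.53 CPM at ZT12 and 33.5 ± 6.04 at ZT0, again with no overlap (-0.39, SE 0.22, adjusted p = 0.752). In FPKM its times overlapped, with 11.2 FPKM in ZT12 library 2 and 10.2 FPKM in ZT0 library 3. Pxdn (ZJQ011869) had 61.6 ± 9.5 and 63.1 ± 23.2 CPM, and pxdn (ZJQ017543) had 25.9 ± 14.2 and 42 ± 36.8 CPM. Summed over the 9 models, peroxidasin stood at 46.4, 48.1 and 52.2 FPKM in ZT12 libraries 1, 2 and 3, against 43.5, 41 and 50.1 FPKM in ZT0 libraries 1, 2 and 3. Over all libraries the family sum varied far less than ZJQ002125 or ZJQ018623. The scarce pxdn (ZJQ021354) averaged 2.14 ± 2.47 CPM at ZT12 and 0.795 ± 1.13 at ZT0, and Pxdn (ZJQ018615) and pxn-1 (ZJQ005411) had at most 1.52 CPM and were not tested.

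**Figure D5:**
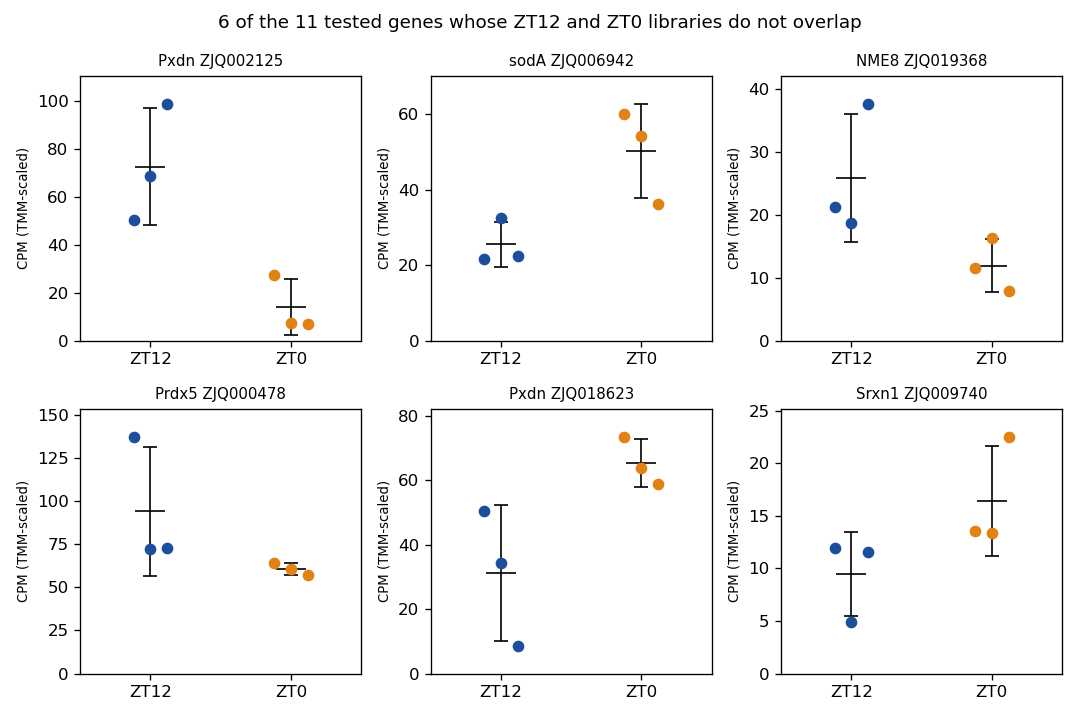
CPM of 6 of the 11 tested genes whose ZT12 and ZT0 libraries do not overlap in CPM, with points for libraries and bars for the mean and SD of 3 libraries. In FPKM the times overlap for sodA and Srxn1. Pxdn ZJQ002125 (50.4 to 98.7 CPM at ZT12, 6.91 to 27.5 CPM at ZT0), NME8 and Prdx5 are higher at ZT12, and sodA, Pxdn ZJQ018623 and Srxn1 are lower; edgeR called 0 of them.

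Genes of the wider redox network did not pass the test either. Of the tested genes, edgeR called 0 of 6 redox sensors, 0 of 8 NADPH suppliers, 0 of 40 for glutathione supply and transfer, 0 of 18 nitric oxide partners, 0 of 5 for metals and heme and 0 of 1 other peroxidase. Of all tested genes 0.13% were called, so a count of 0 says little about these lists. Their median log2 fold changes were 0.04, 0.13, 0.08, 0.02, -0.03 and 0.35. At an unadjusted p under 0.05 there were 0, 0, 2, 2, 1 and 0 genes, against 7.31% of all tested genes. The 2 for glutathione and the 2 nitric oxide partners were higher at ZT12, and the 1 for metals and heme was lower. HIF1A (ZJQ000814), the oxygen-sensitive transcription factor and the most abundant sensor, averaged 1170 ± 73.4 CPM at ZT12 and 1143 ± 192 at ZT0. KEAP1 (ZJQ004762), which holds the antioxidant regulator Nrf2 in check, had 45.7 ± 5.37 and 41 ± 1.67 CPM. None of the 6 sensor genes was described as Nrf2 itself, so its level is not given here. The Nrf2 partner MAFK (ZJQ021347), a small Maf factor, had 33.3 ± 8.11 and 22.1 ± 9.97 CPM (edgeR log2 fold change 0.59, adjusted p = 0.773). The oxidative stress sensor Park7 (ZJQ008517) had 31.3 ± 2.03 and 39.7 ± 15 CPM. Among NADPH suppliers, PGD (ZJQ008444) of the pentose phosphate pathway averaged 763 ± 223 CPM at ZT12 and 743 ± 272 at ZT0, G6pdx (ZJQ002953), its first enzyme, had 323 ± 77.5 and 307 ± 65.3 CPM, and the cytosolic Idh1 (ZJQ021538) had 32.9 ± 18.3 and 17.5 ± 6.9 CPM (0.92, adjusted p = 0.712). Nadk (ZJQ008772), the kinase that makes NADP, averaged 34.7 ± 5.21 CPM at ZT12 and 28.2 ± 6.86 at ZT0.

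Glutathione S-transferases join glutathione to reactive molecules, and GST1 (ZJQ015635) had the smallest p of all genes in these lists. It had 2.05, 0.95 and 1.74 CPM in ZT12 libraries 1, 2 and 3, against 0.0505, 0.214 and 0.0497 CPM in ZT0 libraries 1, 2 and 3. All ZT12 libraries lay above all ZT0 libraries (edgeR log2 fold change 3.78, unadjusted p = 0.000311, adjusted p = 0.119), with 1, 5 and 1 counts behind the ZT0 values. A further GST1 (ZJQ015641) averaged 2.9 ± 1.55 CPM at ZT12 and 0.647 ± 0.271 at ZT0, also with no overlap (2.12, adjusted p = 0.481). The most abundant gene for glutathione supply and transfer, MGST3 (ZJQ022998), averaged 114 ± 77.1 CPM at ZT12 and 103 ± 41.4 at ZT0. Among metal-binding genes, the metallothionein MTA (ZJQ018916) averaged 4.78 ± 0.515 CPM at ZT12 and 8.97 ± 1.49 at ZT0 with no overlap (edgeR log2 fold change -0.91, adjusted p = 0.587). Soma ferritin (ZJQ012741), an iron store, was the most abundant gene of these lists at 6374 FPKM over all libraries, with a log2 fold change of -0.14.

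Calmodulin, which activates nitric oxide synthase when calcium rises, had one abundant gene and several scarce ones. The abundant gene (ZJQ000370) had 385, 378 and 297 CPM in ZT12 libraries 1, 2 and 3, against 366, 319 and 314 CPM in ZT0 libraries 1, 2 and 3, and the times overlapped. The scarce ZJQ001487 had 3.68, 2.04 and 3.47 CPM in ZT12 libraries 1, 2 and 3, against 0.404, 1.28 and 0.298 CPM in ZT0 libraries 1, 2 and 3, with no overlap (edgeR log2 fold change 2.16, adjusted p = 0.463). The scarce ZJQ022145 averaged 1.28 ± 1.37 CPM at ZT12 and 0.212 ± 0.152 at ZT0, also with no overlap (2.56, adjusted p = 0.589). Lactoperoxidase LPO (ZJQ024842), the tested heme peroxidase outside the peroxidasins, averaged 2.8 ± 1.45 CPM at ZT12 and 2.15 ± 1.67 at ZT0.

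The antioxidant genes were about as uneven between libraries of the same time as genes at large. In 66 tested genes with more than 3 counts in every library, the largest fold between libraries of a time was at least 4 in 11 (16.7%), against 18% of 16330 such genes of the whole table. Of the 77 models, the deposited annotation placed 20 in the mitochondrion and 26 in the endoplasmic reticulum. Their median log2 fold changes were 0.04 over 18 tested mitochondrial genes and -0.03 over 23 tested reticulum genes. The median was -0.08 over 23 tested genes placed in the cytosol, -0.10 over 17 extracellular genes, -0.10 over 7 of the plasma membrane and -0.18 over 18 of the nucleus, where 5 lay above and 13 below 0. A gene can be placed in several compartments.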

How the data were processed

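RNA of coelomocytes was sequenced in 6 libraries. Total RNA was extracted with TRIzol and made into libraries with a VAHTS kit, per the labels' protocols. The submitters' processing notes name fastp, HISAT2 and HTSeq. No version, reference assembly, gene set or strandedness is stated there. The authors deposited whole-number counts per gene model, not normalized, and FPKM values per library. In 100% of 109307 values with at least 10 counts, the deposited FPKM equalled the counts divided by library total and 1 length per gene, within 0.1%. Symbols and descriptions are the authors'.

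Counts were tested with edgeR 4.0.16 (R 4.3.3): filterByExpr by group (minimum count 10, minimum total 15), TMM scaling, glmQLFit with legacy = FALSE and glmQLFTest, ZT12 minus ZT0, adjusted by Benjamini-Hochberg over all 18456 tested genes. CPM are on TMM-scaled totals and SE is the absolute log2 fold change over the square root of F. Alternatives used DESeq2 1.42.0, limma 3.58.1 (voom, and trend on log2(FPKM + 1)), other scalings and filters, a replicate block and each library left out. The steps were tested on simulated counts. Members and lists were chosen with earlier results of these data known; families are patterns on descriptions, with Prdx3 falling in the thioredoxin group. Genes named were all tested members of the enzyme families, and of peroxidasins and thioredoxins the 3 most abundant, the 3 with the smallest p and those without overlap; other members named were chosen after their values were seen.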

Additional observations from a re-analysis of the deposited data

How the results depend on the processing

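Of 51 named genes under 14 alternatives, 653 of 714 values kept their sign and their side of the threshold, 60 values in 22 genes turned sign, and Pxdn (ZJQ002125) was called by DESeq2 alone. The cause of these differences was not tested. Plain library totals moved the median log2 fold change of all genes to 0.12, against 0.00 with TMM. Among the antioxidant genes 0 were called under any alternative other than DESeq2, which called 2. All genes called numbered 24, and 259 by DESeq2, 10 with legacy = TRUE, 0 by limma-voom (1078 at an unadjusted p under 0.05), 13 with the replicate block, and 0 to 24 with single libraries left out (0 without ZT12 library 1 or 3, with 1398 and 1502 at an unadjusted p under 0.05). Antioxidant genes at an unadjusted p under 0.05 numbered 3 of 67, beside 1349 of all tested genes. They numbered 5 of 67 with plain totals (1378 of all genes) and 5 of 76 without a filter (1986 of all genes). On FPKM they numbered 5, and with single libraries left out 4 to 8. The counts over all tested genes moved too, to 1398 and 1502 without ZT12 library 1 or 3. The change is therefore not read as particular to the antioxidant genes. The replicate block left their count at 3, with 0 called; the deviations of same-numbered libraries had correlations of -0.0483, 0.0166 and -0.000962, so the numbers were not taken to pair libraries.

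Sign turned for GRXCR1 (log2 fold change -0.0032) with RLE (0.00086), plain totals (0.080), DESeq2 (0.11), legacy = TRUE (0.10), voom (0.058), FPKM (0.083) and the replicate block (0.16). With plain totals it also turned for NOX1 (0.015), GLRX2 (0.048), glrx3 (0.032), Glrx5 (0.11), nosip (0.10) and PRDX6 (0.083), and on FPKM for GLRX2 (0.021), glrx3 (0.018), Glrx5 (0.0052), nosip (0.073) and PRDX6 (0.0062). CCS turned without a filter (-0.0034), with voom (-0.060) and with the replicate block (-0.035). With single libraries left out, the ranges that crossed 0 were -0.015 to 0.31 for CAT, -0.18 to 0.75 for GLRX, -1.76 to 2.06 for GRXCR1, -0.030 to 0.20 for Txnrd3, -0.28 to 0.19 for NOX1, -0.66 to 0.81 for DUOX1, -0.34 to 0.074 for GLRX2, -0.50 to 0.23 for Glrx5, -0.21 to 0.14 for nosip, -0.70 to 0.48 for NOS1, -0.74 to 0.22 for PRDX4 ZJQ023658, -1.38 to 0.13 for PRDX4 ZJQ017344, -0.046 to 0.25 for SOD2, -0.41 to 2.39 for Sod3, -0.14 to 0.26 for CCS, -0.28 to 0.050 for glrx3, -0.33 to 0.24 for PRDX6, -0.054 to 0.345 for ZJQ017342, -0.68 to 0.11 for noxC, -0.055 to 0.41 for TXN, -0.042 to 0.25 for Txnrd2 and -0.51 to 0.067 for Txndc17.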

Other observations

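A pair of metallothionein genes, which bind metals, were high in a single library, while MTB1 (ZJQ019849) averaged 152 ± 44.4 CPM at ZT12 and 156 ± 40.5 at ZT0 (SD, n = 3 each). MTA (ZJQ018470) had 0.9, 67.4 and 0.457 CPM in ZT12 libraries 1, 2 and 3, against 0.101, 2.78 and 1.04 CPM in ZT0 libraries 1, 2 and 3. A further MTA (ZJQ006104) had 64.4 CPM in ZT12 library 2 and at most 0.646 CPM elsewhere. ZT12 library 2 is also the library that was highest for Sod3 and for the sum of egg and ovary markers. Most of that sum came from the cyclin B gene ZJQ013334. All these values were chosen after they were seen.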
